A study of Mus musculus with 8 samples.

Results

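Ion channel genes were followed in the dorsal forebrain of mouse embryos that had lost Sufu in the cortical lineage. The genes were chosen by symbol: protein-coding rows of the deposited table whose symbol follows the pattern of a potassium channel (Kcn), sodium channel (Scn), calcium channel (Cacn) or HCN channel gene, without Kcne2. This gave 137 of 43629 gene IDs, which stand for 134 symbols, since 3 rows are second copies of Cacng6, Cacng7 and Cacng8 on a patch scaffold and held no count. Of the 134 symbols, 100 had enough reads to be tested. The rule used symbols only and no measured value.

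The 4 Sufu-cKO samples, numbered Mut_295, Mut_317, Mut_337 and Mut_340, had the genotype Emx1-cre/+;Sufu-fl/fl, that is 1 Emx1-cre allele and both copies of Sufu floxed. The 4 controls, numbered Cont_294, Cont_345, Cont_365 and Cont_370, were Sufu-fl/fl or Sufu-fl/+, the labels do not say which was which, and no cre allele is listed for them. All 8 were dorsal forebrain of male embryos, aged E12.5, whose strain is given as a mixed background with C57BL/6J. Emx1-cre acts in progenitors of the dorsal telencephalon and their descendants, so blood vessels, microglia and cells that migrate in from elsewhere keep Sufu. SUFU is an intracellular inhibitor of hedgehog signalling that holds GLI transcription factors in check. Whether each sample was a separate embryo or litter is not stated in the labels, and if it was not, p-values measure a spread that is partly technical.

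Libraries held 27514357 to 34878838 counts. Sufu had 44.8, 44.5, 37.4 and 35.9 CPM in the Sufu-cKO samples, against 106, 125, 112 and 105 CPM in the control samples (log2 fold change -1.46, SE 0.09; edgeR, adjusted p = 1.07e-06), so each library matched its genotype label. CPM are counts per library size, with TMM factors applied. Of 7 dorsal forebrain genes, all were detected, with a summed level of 1460 to 1712 CPM in Sufu-cKO and 1793 to 2053 CPM in control samples. The 7 hindbrain and spinal cord Hox genes summed to at most 0.106 CPM in any sample, and Hoxb2, Hoxb3, Hoxc4 and Hoxd4 were at 0 in all 8. In tissue such as this, fewer cells of a type and less RNA per cell cannot be told apart.

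Voltage-gated channels open when the membrane potential changes: sodium channels drive the upstroke of an action potential, potassium channels return the membrane to rest, and calcium channels couple depolarisation to calcium entry. Inward rectifier (Kir) and 2-pore-domain (K2P) channels set the resting potential, and small-conductance (SK) channels open on intracellular calcium. Each pore subunit works with auxiliary subunits, which set gating and surface delivery. At this stage the cortical wall holds mostly progenitors, coupled to each other and hardly excitable, with a thin layer of young neurons that start to acquire sodium and potassium currents.

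Channel genes differed between the genotypes in both directions. Of the 100 tested, 22 passed edgeR's quasi-likelihood test at an adjusted p under 0.05, or 22.0%, where 11.0% of all 15382 tested genes did. In Sufu-cKO samples 9 channel genes were higher (background 5.34%) and 13 lower (background 5.64%). The number higher depended on the test. With no low-count filter it was 16 of 130 channel genes tested, where 3.27% of all genes were called higher. With DESeq2 it was 17, where 7.12% were. Without Cont_345 it was 4, and without Cont_370 or Mut_295 it was 15 or 14. Of the 22, 3 were higher and 5 lower by at least 2-fold. The estimated sizes of change were larger than for genes in general, with a median absolute log2 fold change of 0.36 over the 100 channel genes and 0.12 over all tested genes. Channel genes were also more weakly expressed, with a median of 0.92 CPM per kilobase of exon against 5.64 for tested genes with a length. Estimates from few reads scatter more, and genes of matched level were not compared. The median signed change of the channel genes was 0.01, the same as for all tested genes (0.01). The 22 genes lie on many chromosomes, and no tested channel gene is near Emx1. Kcnip2 alone lies within 10 Mb of Sufu on chromosome 19, 580835 bases away, and it did not pass the test (adjusted p = 0.567).

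By ion, potassium channel genes (66 tested) gave 5 higher and 9 lower, calcium channel genes (21 tested) 1 higher and 4 lower, and sodium channel genes (10 tested) 3 higher and 0 lower in Sufu-cKO. Over all tested genes, 5.34% were higher and 5.64% lower. The potassium and calcium channel genes called higher were near that share. The 6 tested sodium pore subunits had the highest median change of the families (log2 0.55), and the 10 Kir subunits a median of -0.35 with 3 lower and 0 higher. No member passed the test among 5 Kv7 subunits, 7 subunits of Kv10 to Kv12, 4 large-conductance and sodium-activated (Slo) subunits, 4 sodium channel beta subunits and 3 HCN subunits. Among those 23 genes, 3 (Kcnh8, Hcn2 and Scn2b) had an unadjusted p under 0.05, as did 22.5% of all tested genes. DESeq2, limma-voom and edgeR with no low-count filter each called 1, Kcnh8, and the fit without Cont_370 called Kcnh8, Kcnt1 and Scn2b.

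**Figure D1:**
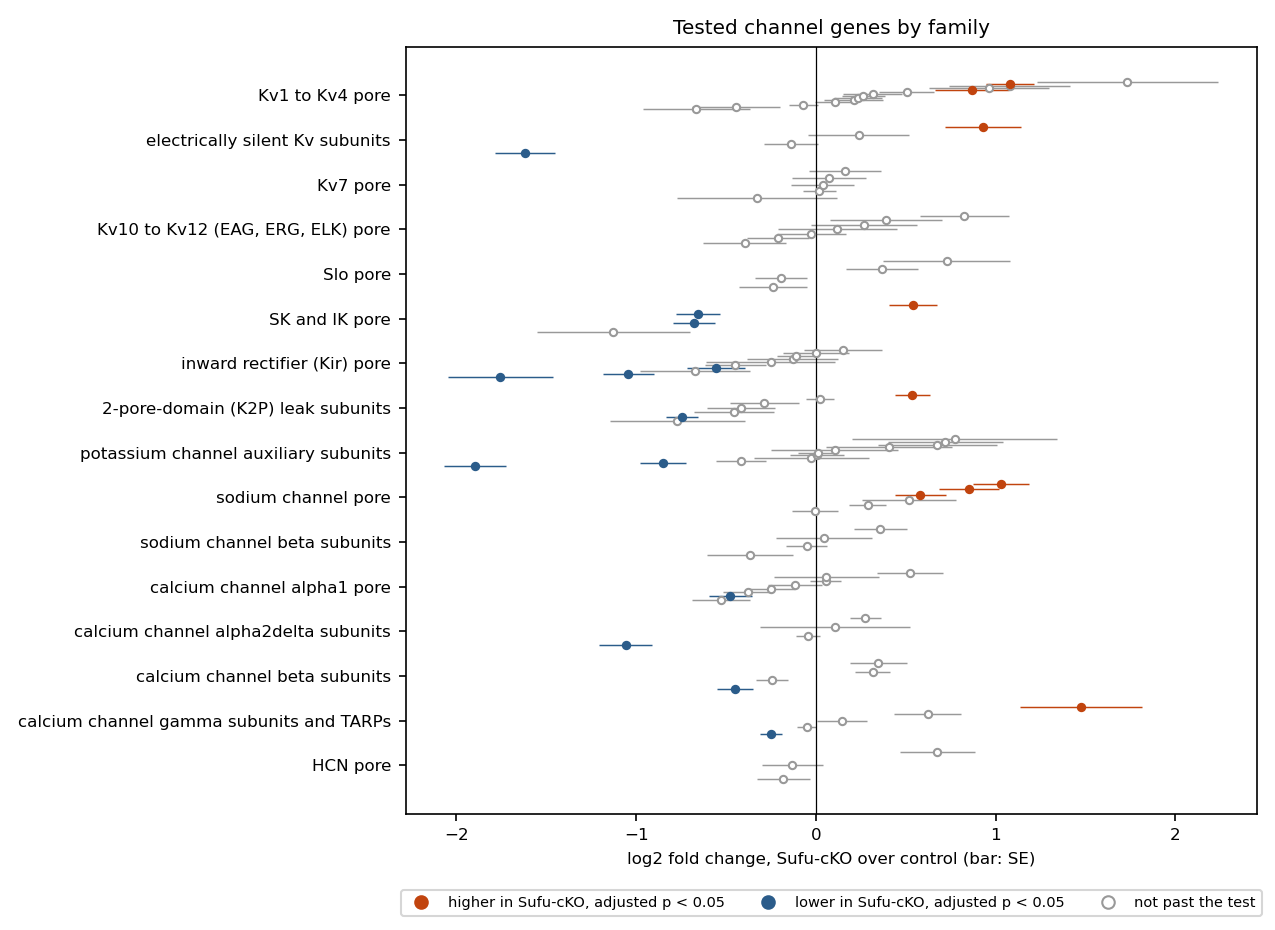
Log2 fold change of each of the 100 tested channel genes, Sufu-cKO over control, by subunit family, with the SE as a bar. Filled points passed the test, 9 higher and 13 lower in Sufu-cKO; the sodium channel pore subunits have 3 filled points, all to the right of 0, and the Kir subunits 3, all to the left.

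GLI factors are the transcription factors that SUFU binds, so promoter windows were read for the letters GLI proteins are known to bind. Windows ran from 250 bases before to 50 bases after each RefSeq start (GRCm38.p6), and 97 of the 134 symbols had at least 1, for 131 windows in all. The 9-letter run GACCACCCA, on either strand, was in 2 of the 131 windows (1.53%) and in 0.253% of 32851 windows of all genes. The shorter run ACCACCC, which the longer one contains, was in 8 of the 131 windows (6.11%, 6 genes) and in 4.61% of all windows. Of the 22 genes that passed the test, 17 had a window and 0 of these held either run. The 2 windows with the longer run belong to Cacnb4 and Scn4a, and Hcn2 holds the shorter one; the capitals mark the run, and GGGTGGT is ACCACCC read on the other strand. The Cacnb4 window (chr2:52675810-52676109, minus strand) is shown whole, the others as 41 bases around the run (Scn4a, chr11:106349450-106349490, minus strand; Hcn2, chr10:79716511-79716551, plus strand).
Cacnb4: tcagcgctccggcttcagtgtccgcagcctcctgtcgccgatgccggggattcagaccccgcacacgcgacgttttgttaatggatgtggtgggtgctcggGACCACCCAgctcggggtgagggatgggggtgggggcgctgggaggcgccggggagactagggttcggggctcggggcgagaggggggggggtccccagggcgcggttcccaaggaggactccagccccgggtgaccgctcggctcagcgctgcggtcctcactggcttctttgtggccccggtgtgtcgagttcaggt
Scn4a: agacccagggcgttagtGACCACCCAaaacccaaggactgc
Hcn2: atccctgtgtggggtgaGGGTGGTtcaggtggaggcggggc

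Cacnb4, a calcium channel beta subunit, had 9.81 ± 1.78 CPM in Sufu-cKO and 7.71 ± 1.35 CPM in control samples (SD, n = 4 each; edgeR, adjusted p = 0.222), and Scn4a, the sodium channel of skeletal muscle, was not tested for lack of reads. For comparison, the windows of Kcnd3 (chr3:105451640-105451939, plus strand) and Kcnip1 (chr11:33993144-33993443, minus strand, at the gene's most upstream RefSeq start) are shown because these genes had the largest rise in CPM and the largest fall in log2 terms among channel genes past the test. Neither window holds either run of letters, which says only that the letters are not in these 300 bases.
Kcnd3: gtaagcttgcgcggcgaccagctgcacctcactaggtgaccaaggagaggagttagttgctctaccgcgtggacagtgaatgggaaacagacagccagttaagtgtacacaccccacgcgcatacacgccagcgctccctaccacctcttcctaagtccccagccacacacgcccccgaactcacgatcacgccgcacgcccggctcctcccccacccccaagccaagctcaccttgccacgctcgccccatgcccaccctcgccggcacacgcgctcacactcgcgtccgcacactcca
Kcnip1: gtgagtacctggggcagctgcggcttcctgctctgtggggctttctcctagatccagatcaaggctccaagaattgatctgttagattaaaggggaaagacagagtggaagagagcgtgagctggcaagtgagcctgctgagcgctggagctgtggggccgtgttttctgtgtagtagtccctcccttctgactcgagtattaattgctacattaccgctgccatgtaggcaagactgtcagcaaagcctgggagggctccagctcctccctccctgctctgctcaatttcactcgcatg

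Of the 3 Kv4 pore genes, Kcnd3 was higher in Sufu-cKO, and of the 4 genes for their calcium-binding KChIP subunits, Kcnip1 and Kcnip3 were lower; the others did not pass. Kcnd3 (ENSMUSG00000040896, GRCm38 chromosome 3, 105452330 to 105674002) encodes Kv4.3, a pore subunit of the fast A-type potassium current. It had 56.3, 63.9, 45.6 and 74.4 CPM in the Sufu-cKO samples, against 26.8, 26.0, 29.8 and 30.9 CPM in the control samples. Every Sufu-cKO sample was above every control sample, and the mean was 2.11-fold higher (log2 fold change 1.08, SE 0.13; edgeR, adjusted p = 0.000493). The other 2 Kv4 genes did not pass: Kcnd2, the Kv4.2 subunit, averaged 15.2 ± 0.800 CPM in Sufu-cKO and 16 ± 0.437 CPM in control samples, and Kcnd1 4.77 ± 0.973 and 4.12 ± 0.112 CPM in Sufu-cKO and control samples.

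Kcnip1 (ENSMUSG00000053519, chromosome 11, 33629339 to 33993152) encodes KChIP1, an EF-hand protein that binds the N-terminus of Kv4 channels and alters their surface level and inactivation. It had 4.2, 5.14, 4.63 and 4.36 CPM in the Sufu-cKO samples, against 15.4, 17.9, 22.7 and 12.4 CPM in the control samples. The lowest control sample, Cont_370, was still above all Sufu-cKO samples, and the control mean was 3.72-fold that of Sufu-cKO (log2 fold change -1.90, SE 0.17; edgeR, adjusted p = 2.52e-05). Kcnip3 (ENSMUSG00000079056, chromosome 2, 127456498 to 127522094), also known as DREAM or calsenilin, encodes a related protein that can act as a calcium-dependent transcriptional repressor as well as a Kv4 partner. It had 10.8, 11.9, 13.4 and 11.0 CPM in the Sufu-cKO samples, against 22.8, 21.2, 24.7 and 16.4 CPM in the control samples (log2 fold change -0.85, SE 0.13; edgeR, adjusted p = 0.0011). For both genes Cont_365 was the highest and Cont_370 the lowest control sample, and the groups did not overlap. Kcnip2 (log2 fold change 0.41, adjusted p = 0.567) and Kcnip4 (0.10, adjusted p = 0.913) did not pass. Kcnip2 had 1.82, 0.810, 1.76 and 1.74 CPM in the Sufu-cKO samples, against 0.686, 0.984, 0.916 and 2.0 CPM in the control samples, so its groups overlapped. The calls for Kcnd3, Kcnip1 and Kcnip3 held with each of the 8 samples left out in turn.

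The electrically silent Kv subunits, which make no channel alone and join Kv2 subunits, changed in both directions. Kcnf1 (ENSMUSG00000051726, chromosome 12, 17172100 to 17176888) encodes Kv5.1. It had 6.26, 5.74, 6.24 and 6.23 CPM in the Sufu-cKO samples, against 3.5, 2.95, 1.93 and 4.43 CPM in the control samples (log2 fold change 0.93, SE 0.21; edgeR, adjusted p = 0.0144). All Sufu-cKO samples lay above all control samples, and the adjusted p was 0.0502 without Cont_345.

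Kcnv1 (ENSMUSG00000022342, chromosome 15, 45106284 to 45114934) encodes Kv8.1, a silent subunit of the same kind that reduces Kv2 current in expression systems. It had 2.48, 1.65, 1.88 and 2.45 CPM in the Sufu-cKO samples, against 6.41, 6.64, 5.91 and 7.06 CPM in the control samples. The control samples were close together and all above the Sufu-cKO samples (log2 fold change -1.62, SE 0.17; edgeR, adjusted p = 6.57e-05), and the call held in all 8 leave-one-out fits. Of the 10 silent subunit genes, 6 had too few reads to be tested. Kcng1, the most abundant per kilobase, had 8.77 ± 1.13 CPM in Sufu-cKO and 9.65 ± 1.88 CPM in control samples (adjusted p = 0.67).

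Other Kv pore subunits had large fold changes at low levels and did not pass the test. Kcna4, the Kv1.4 subunit of an A-type current, had 0.430, 0.739, 1.96 and 1.36 CPM in the Sufu-cKO samples, against 0.309, 0.146, 0.600 and 0.282 CPM in the control samples (log2 fold change 1.73, SE 0.51; edgeR, adjusted p = 0.0509). Mut_295 lay within the range of the controls, and without Mut_295 or Cont_365 the adjusted p was between 0.0158 and 0.0415. Kcnc2, the Kv3.2 subunit of fast-spiking cells, had a log2 fold change of 1.08 (adjusted p = 0.0623; 0.0275 to 0.0407 without Mut_317 or Mut_337) and Kcna2, the Kv1.2 subunit of axons, 0.96 (adjusted p = 0.0941; 0.0391 without Cont_370). Kcnh8, the Kv12.1 subunit, had 4.07, 3.06, 3.78 and 3.91 CPM in the Sufu-cKO samples, against 1.48, 1.64, 1.83 and 3.36 CPM in the control samples (log2 fold change 0.83, adjusted p = 0.054). Only Cont_370 reached the range of the Sufu-cKO samples there, and without it the adjusted p was 0.00265. With DESeq2, Kcna4, Kcnc2 and Kcnh8 passed, and with no low-count filter Kcnc2 and Kcnh8 did. Kcnh8 also passed with limma-voom, and Kcna2 passed in none of these settings.

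The SK genes split. Kcnn1 (ENSMUSG00000002908, chromosome 8, 70842049 to 70857008), Kcnn2 (ENSMUSG00000054477, chromosome 18, 45268860 to 45686024) and Kcnn3 (ENSMUSG00000000794, chromosome 3, 89520164 to 89672072) encode SK1, SK2 and SK3, calmodulin-gated channels behind the medium after-hyperpolarisation of neurons. Kcnn1 had 18.2, 15.4, 13.9 and 13.7 CPM in the Sufu-cKO samples, against 24.6, 28.4, 20.9 and 24.1 CPM in the control samples (log2 fold change -0.68, SE 0.12; edgeR, adjusted p = 0.00274). Kcnn2 had 6.52, 6.93, 6.51 and 7.27 CPM in the Sufu-cKO samples, against 10.7, 12.2, 11.2 and 8.87 CPM in the control samples (log2 fold change -0.66, SE 0.12; edgeR, adjusted p = 0.00423). All Sufu-cKO samples were below all control samples for both genes.

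Kcnn3 went the other way. It had 8.84, 10.7, 8.62 and 11.7 CPM in the Sufu-cKO samples, against 6.45, 7.18, 7.65 and 6.07 CPM in the control samples (log2 fold change 0.54, SE 0.13; edgeR, adjusted p = 0.022), again with no overlap. Its adjusted p was between 0.0518 and 0.0654 when Cont_294, Cont_345, Cont_370, Mut_317 or Mut_340 was left out, while the calls for Kcnn1 and Kcnn2 held in all 8 such fits. Kcnn4, the intermediate-conductance channel of blood and epithelial cells, had 0.397, 0.176, 0.117 and 0.162 CPM in the Sufu-cKO samples, against 0.446, 0.474, 0.284 and 0.649 CPM in the control samples (log2 fold change -1.13, adjusted p = 0.127; 0.034 without Mut_295).

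The 2 tested genes of the TREK group of K2P leak channels, which respond to stretch, lipids and pH, also moved apart. Kcnk2 (ENSMUSG00000037624, chromosome 1, 189207930 to 189402273), encoding TREK-1, had 14.6, 14.5, 15.4 and 15 CPM in the Sufu-cKO samples, against 23.9, 27, 26.9 and 22.0 CPM in the control samples (log2 fold change -0.74, SE 0.09; edgeR, adjusted p = 0.000188). Kcnk10 (ENSMUSG00000033854, chromosome 12, 98433994 to 98577940), encoding TREK-2, had 33.4, 26.6, 29.6 and 34.4 CPM in the Sufu-cKO samples, against 23.9, 21.8, 20.5 and 19.3 CPM in the control samples (log2 fold change 0.54, SE 0.10; edgeR, adjusted p = 0.00404). The Sufu-cKO values of Kcnk2 were within 1 CPM of each other, and neither gene overlapped between groups or lost its call with any sample left out. Exons of A430027H14Rik overlap 12.2% of the exon bases of Kcnk2. Kcnk5, the acid-sensitive TASK-2 channel and the most abundant K2P gene per kilobase, had 33.0 ± 3.11 CPM in Sufu-cKO and 32.5 ± 0.842 CPM in control samples (log2 fold change 0.02, SE 0.08, adjusted p = 0.916). In all, 1 of 7 tested K2P genes was higher, 1 lower and 5 did not pass, and 7 more were too low to test.

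Among inward rectifiers, 3 of 10 tested genes fell and none rose. Kcnj10 (ENSMUSG00000044708, chromosome 1, 172341210 to 172374085) encodes Kir4.1, the potassium-buffering channel of glia. It had 8.34, 9.64, 8.41 and 8.46 CPM in the Sufu-cKO samples, against 19.8, 18.0, 21.2 and 12.8 CPM in the control samples. The groups did not overlap (log2 fold change -1.04, SE 0.14; edgeR, adjusted p = 0.00061). Kcnj9, 11.9 kb away, did not pass (log2 fold change 0.15, adjusted p = 0.758). Radial glia share some genes with later glia. The summed level of 12 neural progenitor genes was 4600 to 4788 CPM in Sufu-cKO and 3610 to 3959 CPM in control samples. Nes and Vim, the most abundant of them, averaged 1140 and 1348 CPM in Sufu-cKO and 849 and 998 CPM in control samples. Of those 12 genes, 6 were higher (background 5.34%), 1 lower (background 5.64%) and 5 not called. Slc1a3 was among the higher (log2 fold change 1.34) and Id4 was the lower one (-0.55). Fabp7 (-0.34) and Prom1 (-0.15) were not called. The part of progenitors in the Kcnj10 result was not tested.

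Kcnj13 (ENSMUSG00000079436, chromosome 1, 87386363 to 87394729) encodes Kir7.1, a channel of choroid plexus and retinal pigment epithelium. It had 1.95, 1.41, 1.96 and 0.614 CPM in the Sufu-cKO samples, against 5.39, 4.19, 5.84 and 4.69 CPM in the control samples (log2 fold change -1.75, SE 0.29; edgeR, adjusted p = 0.00242). Choroid plexus markers moved with it. The summed level of 10 such genes was 312, 283, 277 and 118 CPM in the Sufu-cKO samples and 543 to 824.5 CPM in the control samples. Of the 10, 6 were lower (background 5.64%), 0 higher and none at 0. Mut_340 was the lowest sample for both Kcnj13 and the summed markers. The part of the choroid plexus in the result was not tested. Of the exon bases of Kcnj13, 49.1% overlap exons of Gigyf2 on the other strand, and how strand was used in counting is not given in the sources used here. Gigyf2 itself had 143 ± 7.9 CPM in Sufu-cKO and 147 ± 7.08 CPM in control samples (adjusted p = 0.805).

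Kcnj3 (ENSMUSG00000026824, chromosome 2, 55435970 to 55598145) encodes GIRK1, a G-protein-gated channel. It had 8.24, 6.65, 5.25 and 8.79 CPM in the Sufu-cKO samples, against 8.95, 11.0, 11.6 and 10.8 CPM in the control samples (log2 fold change -0.55, SE 0.16; edgeR, adjusted p = 0.0462). Mut_340 and Cont_294 were close to each other, and the call was lost without Cont_345, Cont_365, Cont_370, Mut_317 or Mut_337 (adjusted p from 0.0796 to 0.119). Its exons overlap those of Gm26794 over 31.1% of their length, and Gm26794 had 1.29 ± 0.457 CPM in Sufu-cKO and 2.06 ± 0.447 CPM in control samples (adjusted p = 0.173). Kcnj5 and Kcnj6, which encode the other GIRK subunits tested beside Kcnj9, had log2 fold changes of -0.11 and -0.25 and did not pass. Kcnj8, the KATP pore subunit found in pericytes, had 4.2 ± 0.351 CPM in Sufu-cKO and 5.73 ± 1.23 CPM in control samples (log2 fold change -0.45, adjusted p = 0.124). The 7 pericyte genes summed to 172 to 229 CPM in Sufu-cKO and 264 to 290 CPM in control samples. Of these, 2 were lower (Notch3 and Vtn, background 5.64%), 0 higher, 5 not called and none at 0. Notch3, the most abundant of the 7, had 87.9 ± 15.7 CPM in Sufu-cKO and 131 ± 13.7 CPM in control samples. The part of pericytes in the Kcnj8 values was not tested.

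**Figure D2:**
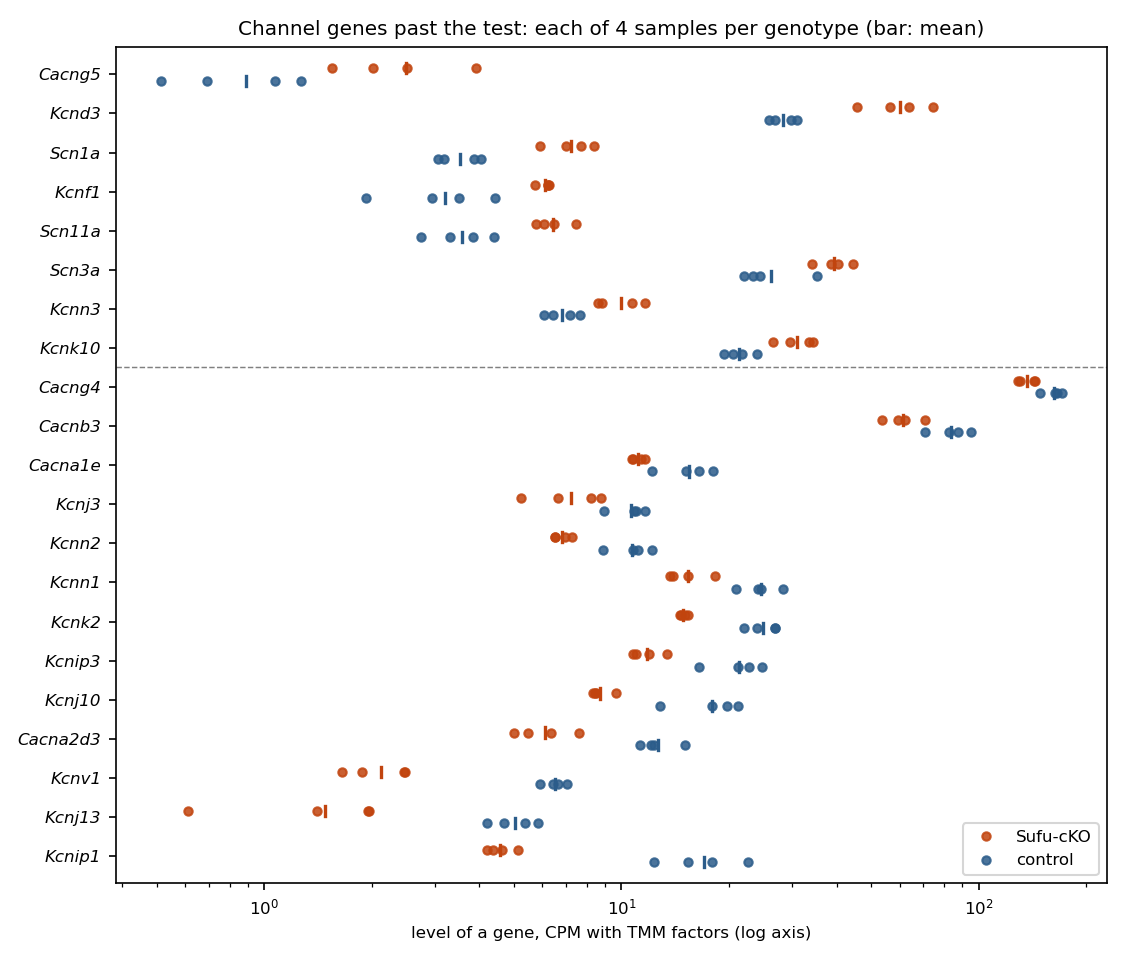
CPM with TMM factors (log axis) of 21 of the 22 channel genes past the test, in each of the 4 Sufu-cKO and 4 control samples, with a bar at each mean. The 8 genes above the dashed line were higher and the 13 below it lower in Sufu-cKO; Scn3a is the 1 gene whose groups overlap, through a control sample at 35.3 CPM.

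Sodium channel pore subunits were higher in Sufu-cKO wherever they passed the test. Scn1a (ENSMUSG00000064329, chromosome 2, 66270781 to 66440840) encodes Nav1.1, known mostly from inhibitory neurons of the mature cortex. It had 7.68, 5.91, 7.0 and 8.37 CPM in the Sufu-cKO samples, against 3.88, 3.06, 3.19 and 4.04 CPM in the control samples (log2 fold change 1.03, SE 0.16; edgeR, adjusted p = 0.00118). Scn11a (ENSMUSG00000034115, chromosome 9, 119753763 to 119825456) encodes Nav1.9, best known from sensory neurons. It had 6.49, 6.05, 7.44 and 5.78 CPM in the Sufu-cKO samples, against 4.39, 3.32, 2.75 and 3.84 CPM in the control samples (log2 fold change 0.85, SE 0.17; edgeR, adjusted p = 0.006). The groups did not overlap for either gene, and both calls held with each sample left out.

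Scn3a (ENSMUSG00000057182, chromosome 2, 65457118 to 65567627) encodes Nav1.3, the main sodium channel of embryonic brain. It had 34.2, 38.6, 44.4 and 40.4 CPM in the Sufu-cKO samples, against 24.4, 22.1, 23.4 and 35.3 CPM in the control samples (log2 fold change 0.58, SE 0.14; edgeR, adjusted p = 0.0261). Cont_370 reached above the lowest Sufu-cKO sample, Mut_295. The adjusted p lay between 0.0544 and 0.0875 when Cont_294, Cont_345, Cont_365, Mut_317, Mut_337 or Mut_340 was left out. Scn8a, encoding Nav1.6, had 26.0 ± 0.539 CPM in Sufu-cKO and 21.3 ± 3.57 CPM in control samples (log2 fold change 0.29, adjusted p = 0.116), and Scn9a, encoding Nav1.7, a log2 fold change of 0.52 (adjusted p = 0.268). Without Cont_370 both passed, Scn8a with an adjusted p of 0.00819 and Scn9a with 0.0342.

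Scn3a, Scn1a and Scn9a lie in 1 cluster on chromosome 2, with Scn3a and Scn1a 703 kb apart and Scn9a 39.2 kb from Scn1a. Between Scn3a and Scn1a lies Scn2a1, encoding Nav1.2, whose symbol is outside the rule and which was looked at after the values of its neighbours were seen. It had 8.03 ± 0.464 CPM in Sufu-cKO and 5.73 ± 0.469 CPM in control samples (log2 fold change 0.49; edgeR, adjusted p = 0.0191), and its adjusted p was 0.0585 and 0.06 without Cont_294 or Cont_345. On chromosome 9, Scn11a lies 34.7 kb from Scn10a, which had too few reads to be tested. None of the 4 beta subunits, which tether and modulate the pore, passed. Scn3b, the most abundant, had 30.6 ± 5.19 CPM in Sufu-cKO and 31.7 ± 2.57 CPM in control samples (adjusted p = 0.846).

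Summed markers of young neurons were higher in Sufu-cKO, like the sodium channel genes that passed, but so were neural progenitor genes. The 15 young neuron genes summed to 3036 to 3280 CPM in Sufu-cKO and 2447 to 2865 CPM in control samples. Of these, 7 were higher (background 5.34%), 0 lower (background 5.64%), 8 not called and none at 0. The 12 progenitor genes summed to 4600 to 4788 CPM in Sufu-cKO and 3610 to 3959 CPM in control samples, with 6 higher, 1 lower and 5 not called. The summed level of 12 GABAergic neuron genes was 230, 81.2, 130 and 218 CPM in the Sufu-cKO samples, against 81.4, 70.9, 100 and 165 CPM in the control samples, with 1 higher (Npy) and 0 lower. Cont_370, the control sample with the highest GABAergic sum, was also the control sample that overlapped the Sufu-cKO range for Scn3a and Kcnh8. Among the Sufu-cKO samples the order differed by gene. Mut_295, with the highest GABAergic sum there, had the lowest Scn3a level and the highest Kcnh8 level. The part of any of these lists in these results was not tested.

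Calcium channel subunits were mostly lower where they passed. Cacna1e (ENSMUSG00000004110, chromosome 1, 154390731 to 154884501) encodes Cav2.3, the pore of R-type current. It had 10.8, 11.6, 10.7 and 11.3 CPM in the Sufu-cKO samples, against 12.1, 15.2, 18.0 and 16.5 CPM in the control samples (log2 fold change -0.48, SE 0.12; edgeR, adjusted p = 0.0235). The groups did not overlap, with Cont_294 close to the Sufu-cKO samples. The call was lost without Cont_345, Cont_365, Cont_370 or Mut_337 (adjusted p from 0.0509 to 0.0726). Cacna1g, the T-type channel Cav3.1 and the most abundant alpha1 gene per kilobase, had 45.8, 53.2, 58.0 and 36.1 CPM in the Sufu-cKO samples, against 59.4, 74.0, 60.4 and 84.7 CPM in the control samples. These groups did not overlap either, but the spread was wide and the gene did not pass (log2 fold change -0.53, SE 0.16, adjusted p = 0.0742; 0.039 without Mut_337). Cacna1g passed with DESeq2, with limma-voom and with edgeR without robust estimation. The N-type channel gene Cacna1b stood on the other side, with 22.0 ± 5.06 CPM in Sufu-cKO and 15.3 ± 2.99 CPM in control samples (log2 fold change 0.52, adjusted p = 0.113). It passed with DESeq2 (adjusted p = 0.0324) and in the edgeR fits without Cont_370 (0.04) or Mut_295 (0.00969).

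Of the alpha2delta subunits, which carry channels to the surface, Cacna2d3 (ENSMUSG00000021991, chromosome 14, 28904943 to 29721864) passed the test. It had 5.46, 6.34, 5.01 and 7.59 CPM in the Sufu-cKO samples, against 11.3, 12.4, 15.1 and 12.1 CPM in the control samples, with no overlap (log2 fold change -1.06, SE 0.15; edgeR, adjusted p = 0.000659; called in all 8 leave-one-out fits). Cacna2d1, the gabapentin-binding subunit, pointed the other way without passing: 143 ± 18.7 CPM in Sufu-cKO and 118 ± 6.22 CPM in control samples (log2 fold change 0.28, adjusted p = 0.0686). Mut_295, at 115 CPM, was its 1 Sufu-cKO sample within the control range, and without it the adjusted p was 0.00244. Cacna2d1 also passed with DESeq2 and with no low-count filter. Cacnb3 (ENSMUSG00000003352, chromosome 15, 98632220 to 98644530), a cytoplasmic beta subunit of N- and L-type channels, had 70.5, 62.0, 59.5 and 53.7 CPM in the Sufu-cKO samples, against 70.5, 87.2, 95.1 and 82.7 CPM in the control samples (log2 fold change -0.45, SE 0.10; edgeR, adjusted p = 0.0134). Mut_295 and Cont_294 had the same level to 3 digits. The other 3 beta subunits did not pass, and Cacnb2 (log2 fold change 0.32, adjusted p = 0.0596), which passed with DESeq2, was the nearest.

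The gamma family includes TARPs, which escort AMPA receptors rather than calcium channels, and held the 2 most abundant tested channel genes per kilobase. Cacng4 (ENSMUSG00000020723, chromosome 11, 107732357 to 107794557), encoding TARP gamma-4, had 142, 143, 129 and 131 CPM in the Sufu-cKO samples, against 149, 163, 165 and 171 CPM in the control samples (log2 fold change -0.25, SE 0.06; edgeR, adjusted p = 0.0197). Cacng5 (ENSMUSG00000040373, chromosome 11, 107874605 to 107915055), encoding TARP gamma-5, starts 80.0 kb away and had 2.52, 1.55, 2.02 and 3.91 CPM in the Sufu-cKO samples, against 0.515, 0.693, 1.07 and 1.27 CPM in the control samples. Its mean was 2.78-fold higher in Sufu-cKO (log2 fold change 1.47, SE 0.34; edgeR, adjusted p = 0.0152), so these neighbouring genes of the gamma family differed in direction. The adjusted p of Cacng4 was 0.0526 to 0.0622 without Cont_345, Cont_365, Cont_370 or Mut_337, and that of Cacng5 0.0541 without Cont_345. Cacng7, a TARP with a close paralogue in Cacng5, had 106, 102, 97.2 and 96.8 CPM in the Sufu-cKO samples, against 98.7, 106, 107 and 104 CPM in the control samples, which overlapped (log2 fold change -0.05, SE 0.05, adjusted p = 0.651).

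Several families known from excitable cells had no member past the test. Kcnq3, a subunit of the M-current, had 18.1 ± 4.40 CPM in Sufu-cKO and 17.6 ± 2.97 CPM in control samples (log2 fold change 0.04, SE 0.17, adjusted p = 0.938). Kcnh7, the most abundant of the EAG, ERG and ELK genes, had 17.1, 27.5, 18.5 and 25.7 CPM in the Sufu-cKO samples, against 27.8, 27.7, 27.9 and 19.5 CPM in the control samples (log2 fold change -0.21, adjusted p = 0.541). Its Sufu-cKO samples fell into a low and a high pair, and Cont_370 stood with the low pair. Of the HCN genes, which carry the pacemaker current, Hcn3 had 10.2 ± 1.09 CPM in Sufu-cKO and 11.6 ± 2.27 CPM in control samples (adjusted p = 0.539). Hcn2 had 1.13, 1.13, 1.08 and 1.0 CPM in the Sufu-cKO samples, against 0.652, 0.620, 0.727 and 0.706 CPM in the control samples. Those groups did not overlap, and the adjusted p was 0.0588. Kcnt2, the sodium-activated Slick channel and the most abundant Slo gene, had 5.02 ± 0.577 CPM in Sufu-cKO and 5.74 ± 0.690 CPM in control samples (adjusted p = 0.498).

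In all, 30 of the 100 tested channel genes had groups that did not overlap (16.2% of all tested genes did), 13 with Sufu-cKO higher (background 8.33%) and 17 with Sufu-cKO lower (background 7.86%). They include 21 of the 22 genes past the test. The other 9 were Cacng2, Hcn2, Cacnb2, Cacna1g, Kcnmb4, Kcna2, Kcnj8, Kcne3 and Kcna5, which did not pass. At an unadjusted p under 0.05 stood 44 of the 100 (background 22.5%).

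**Figure D3:**
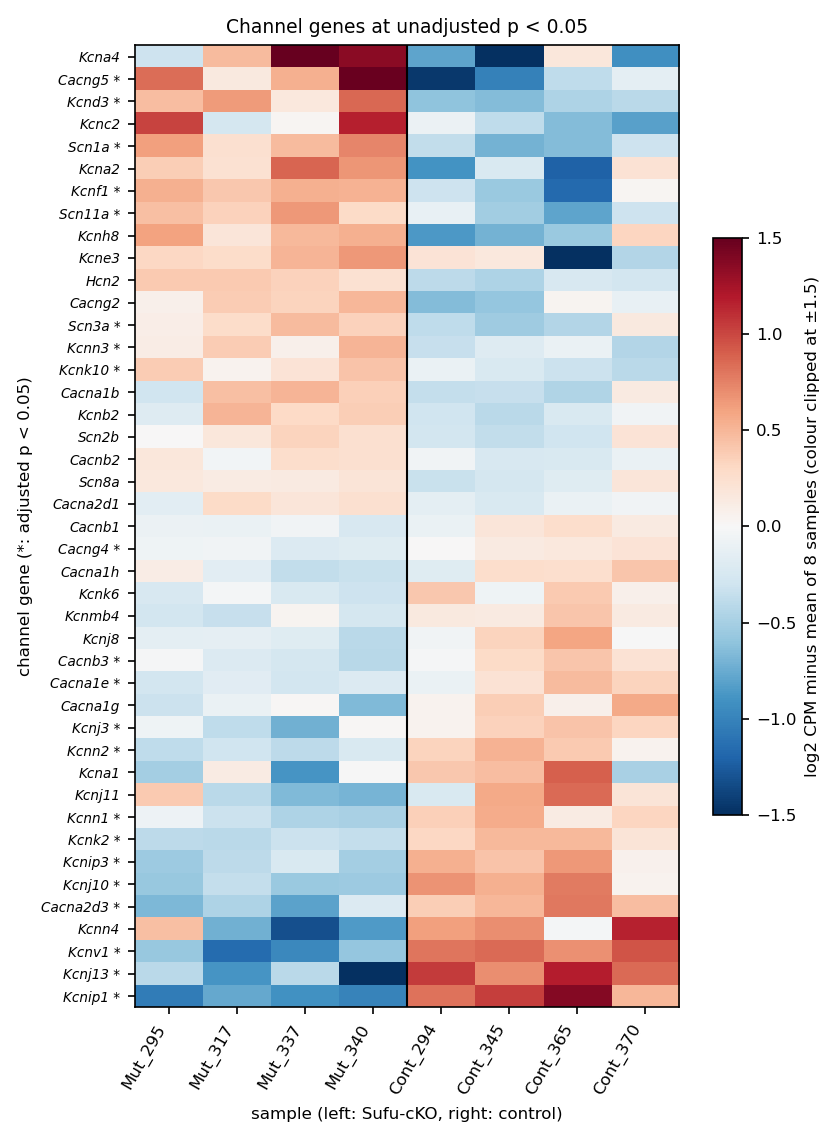
Log2 CPM of 43 of the 44 channel genes at an unadjusted p under 0.05, each minus its mean over the 8 samples, with the 4 Sufu-cKO samples on the left and the 4 control samples on the right. Asterisks mark the 21 shown genes past the test; Cont_370 is red or pale, near the Sufu-cKO samples, for Kcnh8, Scn3a, Kcna2 and Scn8a.

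The samples of a group differed among themselves most for weakly expressed genes. The median coefficient of variation over 4 samples was 16.8% in Sufu-cKO and 15.7% in control samples. Among genes averaging 1 CPM or more, Kcnt1, Kcnip2, Kcnh4 and Kcne4 had wide spreads. Kcnt1, the sodium-activated Slack channel, had 5.76, 3.10, 4.13 and 4.62 CPM in the Sufu-cKO samples, against 1.78, 1.64, 2.12 and 5.0 CPM in the control samples. Cont_370 alone set its overlap, and the log2 fold change of 0.73 (adjusted p = 0.26) became 1.24 (adjusted p = 0.00594) without that sample. Kcnh4 had 4.24, 1.72, 2.11 and 1.78 CPM in the Sufu-cKO samples, against 1.85, 1.97, 1.67 and 2.65 CPM in the control samples, so that Mut_295 alone was high. Kcne4, a Kv auxiliary subunit, had 1.16 ± 0.604 CPM in Sufu-cKO and 1.20 ± 0.237 CPM in control samples. Among the control samples, Cont_365 was highest for 36 of the 100 genes and Cont_370 for 34, where 27.1% and 25.7% of all tested genes had their highest control value there, and Cont_345 was highest for 9 (20.4% of all tested genes).

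Levels between genes were compared per length, as CPM per kilobase of annotated exon. Cacng7 (41.1 ± 1.74 in Sufu-cKO and 42.6 ± 1.51 in control samples) and Cacng4 (38.1 ± 2.15 in Sufu-cKO and 45.3 ± 2.65 in control samples) came first, and their ranges over the 8 samples overlapped. Cacnb3 was next (15.3 ± 1.74 in Sufu-cKO and 20.9 ± 2.56 in control samples), below both over all samples. Cacna2d1, Kcnk5, Cacna2d2, Cacna1g, Scn3b, Cacnb1 and Kcnip3 filled the next places. The first 3 genes held 40.3% of the summed level of all 100. Only 3 of the 99 neighbouring pairs in this order had ranges that did not overlap, so most places in it cannot be told apart from the next.

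**Figure D4:**
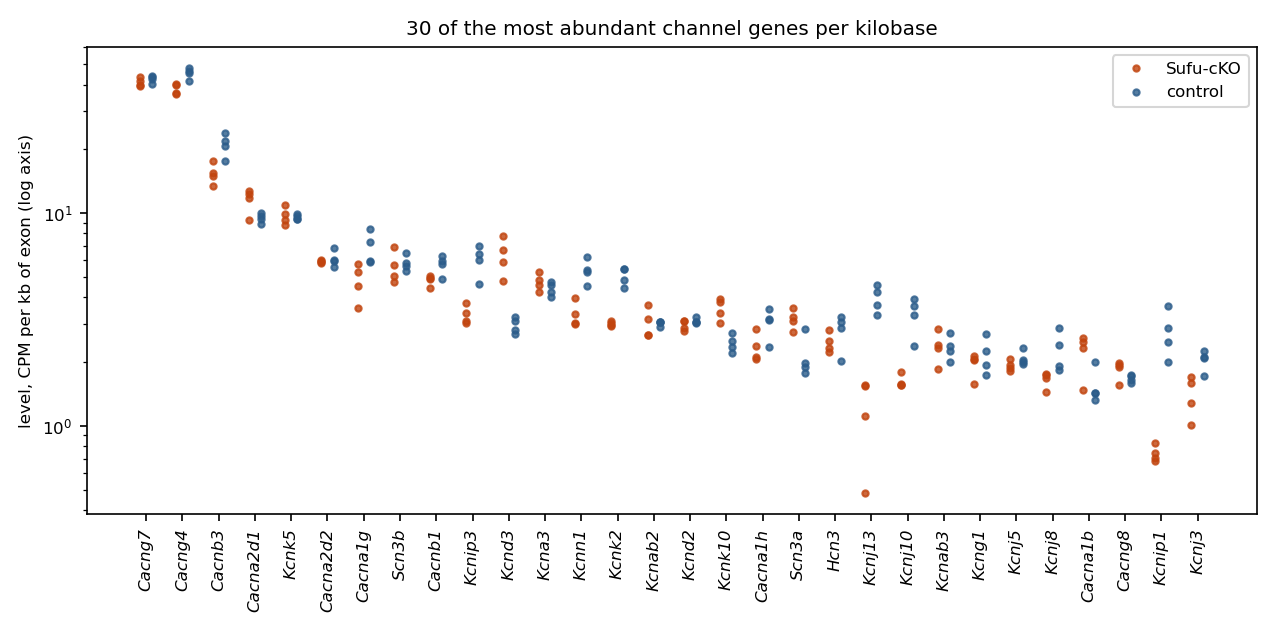
Level per kilobase of exon (CPM per kb, log axis) of 30 of the most abundant channel genes in each of the 4 Sufu-cKO and 4 control samples. Cacng7 and Cacng4 stand near 40, Cacnb3 follows with 13.4 to 23.7, and from Cacna2d1 on the ranges of neighbours mostly overlap.

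As a class channel genes were weakly expressed. The median level was 0.92 CPM per kilobase over the 100 tested channel genes and 5.64 over 15290 tested genes with a length, 46 of the 100 were at 1 or more, and 9 at 5 or more. The highest mean was 41.8 and the lowest 0.0476. By level per kilobase averaged over both genotypes, Kcnd3 was the leading Kv1 to Kv4 gene (6.26 in Sufu-cKO and 2.96 in control samples), although Kcna3 (4.74 in Sufu-cKO and 4.40 in control samples) and Kcnd2 (2.96 in Sufu-cKO and 3.10 in control samples) were above it in control samples. Kcnn1 was the leading SK gene (3.34 in Sufu-cKO and 5.34 in control samples). Kcnj13 was the leading Kir gene on average (1.17 in Sufu-cKO and 3.96 in control samples), but Kcnj5 (1.91 in Sufu-cKO and 2.07 in control samples) and Kcnj10 (1.61 in Sufu-cKO and 3.32 in control samples) were above it in Sufu-cKO. The summed CPM of the 100 genes was 1325 to 1391 in Sufu-cKO and 1312 to 1457 in control samples, which overlap. Summed per kilobase, the 100 genes gave 235 to 247 in Sufu-cKO and 248 to 273 in control samples. On that scale every Sufu-cKO sample was below every control sample, the nearest pair by little. Cacng7, Cacng4 and Cacnb3 held 40.3% of this sum, and of these Cacng4 and Cacnb3 were called lower, so few genes weigh heavily in it. Channel genes are also long: the median span was 61421 bases for tested channel genes and 22270 bases for all tested genes, with 110510 for those higher in Sufu-cKO, 65597 for those lower and 55249 for those that did not pass.

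Channels are placed and supported by proteins outside the symbol rule, and 33 genes for such partners were listed, of which 32 were tested. In Sufu-cKO 5 were higher (background 5.34%), 2 were lower (background 5.64%) and 25 did not pass, with a median log2 fold change of 0.10. Those higher included the ankyrin genes Ank2 and Ank3. The Ank3 product, ankyrin-G, anchors sodium and potassium channels at the axon initial segment. Ank2 had 219 ± 13.2 CPM in Sufu-cKO and 162 ± 13 CPM in control samples (adjusted p = 0.00118), and Ank3 had 106 ± 12.2 CPM in Sufu-cKO and 84.8 ± 5.72 CPM in control samples (adjusted p = 0.0288). Cntnap2, encoding CASPR2, which clusters Kv1 channels, had 298 ± 14.5 CPM in Sufu-cKO and 182 ± 26.0 CPM in control samples (log2 fold change 0.71, adjusted p = 0.000304). Fgf12, an intracellular FGF that binds sodium channels, had 2.93 ± 0.380 CPM in Sufu-cKO and 1.76 ± 0.383 CPM in control samples (adjusted p = 0.0333), and Fam155a, a subunit of the NALCN leak channel, 6.17 ± 0.592 CPM in Sufu-cKO and 3.59 ± 0.634 CPM in control samples (adjusted p = 0.00755). Among the lower genes was Atp1b2, a sodium pump subunit known from glia, with 23.1 ± 0.655 CPM in Sufu-cKO and 29.7 ± 3.06 CPM in control samples (adjusted p = 0.0154). Ank3 lost its call in 7 of the 8 leave-one-out fits (all but that without Mut_295; adjusted p from 0.0505 to 0.0899) and Fgf12 in 5 (without Cont_294, Cont_345, Mut_317, Mut_337 or Mut_340; adjusted p from 0.055 to 0.106).

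The other 34 symbols had too few reads for a test, with at most 24 counts in any sample, and 4 of them (Kcnk16, Kcnk18, Kcna10 and Kcnmb3) had none in any. A count of 0 allows up to 3 counts per library, or 0.0847 to 0.109 CPM, for counting error only. Kcne1, a KCNQ1 partner, had 6, 1, 13 and 7 counts in the Sufu-cKO samples and 2, 0, 0 and 0 in the control samples. Kcnc4, the Kv3.4 subunit, had 11, 16, 24 and 8 counts in the Sufu-cKO samples and 7, 3, 6 and 5 in the control samples. Every Sufu-cKO sample was above every control sample for Kcnc4 but not for Kcne1. Both passed edgeR's test when no gene was filtered out, and were picked out here for that reason.

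The authors' deposited table gives its own test for each gene. At a false discovery rate under 0.05 it lists 23 of the 100 channel genes tested here (11 higher and 12 lower in Sufu-cKO). Of its 25299 genes with any count, which were not filtered for low counts, 5.78% pass. Of the 23, 21 are among the 22 found here. Channel genes with too few reads for a test here were left out of this count. Cacng4 does not pass in the authors' deposited table (false discovery rate 0.0947), while Cacng2 and Kcnh8 do (0.0247 for Kcnh8).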

How the data were processed

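Per the labels' protocols, total RNA (Qiagen RNeasy) went into Illumina TruSeq stranded mRNA libraries. Reads were aligned with STAR 2.4.2a to GRCm38, per the submitters' processing notes. How reads were counted, and with which strand setting, is not stated in the sources used here.

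The values tested are raw counts of the 8 samples, as the authors deposited them. A second deposited table holds a normalised signal, each count divided by 1 size factor per sample, which equalled the median-of-ratios factors, and for each gene the authors' fold change of Sufu-cKO over control, a linear ratio, its p-value and its false discovery rate. That table also gives the symbols and GRCm38 positions used here, and 1 of its gene IDs, turned into a spreadsheet formula, was restored. No column of values failed to match a sample. No pair of samples in a group agreed within sampling noise, as repeated sequencing of 1 library would. Each counted as 1 replicate, but this check cannot tell separate embryos from separate libraries of 1 embryo.

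The main test was run with edgeR 4.0.16 in R 4.3.3. Filtering by filterByExpr (minimum count 10, minimum total 15) left 15382 of 25299 genes with any count, which hold 99.94% of the counts. With TMM scaling, Sufu-cKO was compared with control by the 2-sided quasi-likelihood F-test with robust estimation. Benjamini-Hochberg adjustment ran over all 15382 genes, and a gene passed at an adjusted p under 0.05. Values are CPM per sample or mean ± SD (n = 4), with the SE of a log2 fold change taken from its F statistic. The biological coefficient of variation was 12.8%. Exon lengths and overlaps came from GENCODE M21 and promoter sequences from RefSeq.

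The channel genes, subunit families, partner list and marker lists were chosen with earlier results of these data known. Named members were those past the test, the most abundant per kilobase of each family, the 5 largest changes that did not pass and the 5 widest spreads at a mean of at least 1 CPM. Other members were named to complete a family or a count, with their values known. A few genes under this rule are counted but not reported here. Alternatives were RLE, upper-quartile and no scaling factors, no low-count filter, at least 1 CPM in 4 samples, no robust estimation, DESeq2 1.42.0, limma-voom (limma 3.58.1), coding in place of exon length, and each sample left out in turn.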

Additional observations from a re-analysis of the deposited data

Results flagged for a closer look

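In 6 of 86 groups of 4 samples (43 named channel genes in each genotype), the sample farthest out was separated from its nearest neighbour by more of the group's range than the 95% critical value of Dixon's test allows. Chance alone flags about 1 in 20 groups, a rate that does not apply to this set as it stands: 5 of the 43 genes were named for their wide spread, and 3 of the 6 flags (Kcnt1, Kcnip2 and Kcnh4) fall on these. Kcnf1 had 5.74 CPM in Mut_317, against 6.23 to 6.26 CPM in the other Sufu-cKO samples. Kcnj10 had 9.64 CPM in Mut_317, against 8.34 to 8.46 CPM in the other Sufu-cKO samples, and Kcnip2 had 0.810 CPM in Mut_317, against 1.74 to 1.82 CPM. Kcnh4 had 4.24 CPM in Mut_295, against 1.72 to 2.11 CPM in the other Sufu-cKO samples. In the control group the sample that stood apart was Cont_370 both times: Kcnt1 had 5.0 CPM there, against 1.64 to 2.12 CPM in the other control samples, and Kcnh7 had 19.5 CPM, against 27.7 to 27.9 CPM. For Kcnf1 and Kcnj10 the other 3 samples lie close together, and in both the separate sample stayed on its own genotype's side.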

How the results depend on the processing

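No direction of a called channel gene turned under any of the 16 alternatives. Of the 22 called channel genes, 14 passed in all 8 leave-one-out fits and 21 in all 8 other settings, the exception there being Kcnj3 without robust estimation (adjusted p = 0.0548). The number of channel genes higher in Sufu-cKO was the value that moved most. It was 9 as reported, 16 of 130 tested with no low-count filter (background 3.27%) and 17 with DESeq2 (background 7.12%). With 1 sample left out it ranged from 4 (without Cont_345, background 3.5%) to 15 (without Cont_370, background 5.04%), and was 14 without Mut_295 (background 5.75%). The number lower ranged from 10 to 15. Over all tested genes, 539 to 885 were higher and 545 to 919 lower in those fits, with the lowest counts of both without Cont_345. Higher partner genes ranged from 3 to 7 with 1 sample left out, at 3 without Cont_294, Cont_345, Mut_317, Mut_337 or Mut_340, and lower ones from 2 to 3; with upper-quartile factors or DESeq2, 4 partner genes were lower. The cause of these shifts was not tested beyond the smaller number of samples in the leave-one-out fits. With coding length in place of exon length, 7 of the 10 most abundant channel genes were the same. Other scalings moved the median log2 fold change of all genes by at most 0.019. No paired analysis was made, because the labels give no litter or other pairing of the samples. Genes below about 1 CPM rest on few reads, which limits what could be called among them.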

Other observations

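Over all tested genes, 5.34% were higher and 5.64% lower in Sufu-cKO. Of the other marker lists, 10 endothelial genes summed to 283 to 334 CPM in Sufu-cKO and 328 to 379 CPM in control samples, with 3 lower and 0 higher. The 11 microglia and macrophage genes summed to 40.0 to 57.6 CPM in Sufu-cKO and 52.0 to 69.3 CPM in control samples, with 4 lower and 0 higher. Of 7 erythroid genes, 1 was lower (Hemgn) and 0 higher, and their sum was 2852 to 3205 CPM in Sufu-cKO and 3286 to 4450 CPM in control samples. The 8 Cajal-Retzius genes split, with Ndnf higher and Reln lower in Sufu-cKO, and their sums overlapped between the groups. Of the 7 dorsal forebrain genes, Emx1, Emx2, Lhx2 and Neurog2 were lower and Tbr1 higher in Sufu-cKO.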
